A study of Rattus norvegicus with 6 samples.

Results

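The small heat shock protein genes Hspb1, Hspb2, Hspb3, Hspb6, Hspb7, Hspb8 and Cryab, together with the co-chaperone gene Bag3, were examined in RNA sequencing data of rat myocardium. These 8 genes were fixed by gene family and found by symbol, each in 1 row of a table of 32623 genes. The sham group held 3 rats and the ischemia group 3 rats in which a suture around the left anterior descending coronary artery had closed the vessel. All 6 samples carried the labels WT, myocardial tissue and 30 min, the protocol names male rats with a left thoracotomy, and total RNA was made into stranded libraries. No ligation is described for the sham rats, and strain, age and the part of the heart that was taken are not given in the sources used here. The study asked about Hsp27, the product of Hspb1, and the comparison here asks what its relatives and its partner Bag3 did in the same samples.

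Small heat shock proteins are chaperones that need no ATP. They share an alpha-crystallin domain, assemble into dimers and larger oligomers, and hold unfolding proteins until other chaperones refold or remove them. In heart muscle they are known for guarding desmin, titin and filamin at the Z-disc. Bag3 links Hsp70 to Hspb8 and steers damaged muscle proteins to autophagy. Many of these genes are known targets of the heat shock transcription factors, which bind repeats of GAA and its complement TTC, called heat shock elements.

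The promoter windows are shown because 4 of these genes share the letters of such an element, among them Hspb1, the gene of the 8 that passed the test below. The windows come from RefSeq on build GRCr8, and each runs from 250 bases before to 50 bases after the start that the table uses. Windows of 6 of the 8 genes were matched by symbol, and those of Hspb2 and Cryab were not used here. The 8-letter motifs searched were GAANNTTC and TTCNNGAA, each of which is its own reverse complement, so that 1 search covers both strands, and matches of both can overlap. Among all 33469 windows, 8.59% held GAANNTTC, 8.77% held TTCNNGAA and 15.9% held at least 1 of them. Of the 6 windows, those of Hspb1, Hspb6, Hspb8 and Bag3 held at least 1. The same 8 letters stood in all 4 of them, GAAGTTTC, which on either strand occurred in 1.39% of all windows. That shared word was picked after the sequences were seen. The stretches around it follow, with the word in capitals.

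Hspb1: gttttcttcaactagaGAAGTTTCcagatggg
Hspb6: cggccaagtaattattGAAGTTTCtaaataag
Hspb8: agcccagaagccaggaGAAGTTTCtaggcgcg
Bag3: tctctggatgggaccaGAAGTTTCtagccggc

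The word began 129 bases before the start in Hspb1, 149 in Hspb6, 132 in Bag3 and 23 in Hspb8, whose start in this table lies inside the RefSeq gene span. A second match of GAANNTTC stood 109 bases before the start of Hspb1, and TTCNNGAA matched 239 bases before that of Hspb6. The windows of Hspb7 and Hspb3 held neither motif. A match says only that the letters are there. The whole windows of Hspb1 (chr12:26432252-26432551, minus strand), Hspb7 (chr5:159010509-159010808, plus strand) and Hspb3 (chr2:47029116-47029415, minus strand) are printed because these genes had the highest and the lowest log2 fold changes of the 8. Capitals mark the heat shock motifs in Hspb1 and a TATA box in Hspb7 and Hspb3. The TATA box was searched as TATAAA on both strands, and 14.2% of all windows held it. The window of Hspb6, which is not printed whole, held it too, 58 bases before the start.

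Hspb1: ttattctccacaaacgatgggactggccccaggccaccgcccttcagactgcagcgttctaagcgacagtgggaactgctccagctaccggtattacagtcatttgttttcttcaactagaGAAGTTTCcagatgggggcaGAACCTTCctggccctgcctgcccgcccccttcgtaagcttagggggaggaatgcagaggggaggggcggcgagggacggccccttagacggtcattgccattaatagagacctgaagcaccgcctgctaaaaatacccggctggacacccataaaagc
Hspb7: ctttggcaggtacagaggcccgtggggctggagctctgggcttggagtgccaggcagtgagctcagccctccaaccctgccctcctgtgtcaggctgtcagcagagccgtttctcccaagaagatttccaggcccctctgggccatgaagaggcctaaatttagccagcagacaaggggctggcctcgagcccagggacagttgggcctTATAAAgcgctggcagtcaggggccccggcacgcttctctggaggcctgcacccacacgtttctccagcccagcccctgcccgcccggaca
Hspb3: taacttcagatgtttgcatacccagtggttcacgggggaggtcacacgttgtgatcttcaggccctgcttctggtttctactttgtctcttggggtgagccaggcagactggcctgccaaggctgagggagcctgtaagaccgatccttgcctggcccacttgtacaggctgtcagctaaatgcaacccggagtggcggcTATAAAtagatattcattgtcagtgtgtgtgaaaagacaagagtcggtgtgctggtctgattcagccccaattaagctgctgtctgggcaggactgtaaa

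Some libraries stood apart from the others of their group. Total counts lay between 68529126 and 79591989, and the lowest count of any of the 8 genes in any sample was 846. On 4 Y-linked genes sham replicate 1 had 26 counts and every other sample between 1772 and 4366, although the protocol names male rats. The summed level of 4 atrial muscle genes (Myl7, Myl4, Sln and Nppa) was 47952 and 35818 CPM in sham replicates 1 and 3, 394 CPM in sham replicate 2, and 9267, 1732 and 1220 CPM in ischemia replicates 1 to 3, where CPM are counts divided by the scaled size of the library. Of 8 genes listed for ventricular cardiomyocytes, 7 had negative log2 fold changes, 3 of them without overlap (15.0% of all tested genes), 0 passed the adjusted threshold, and the median was -0.69. The summed level of these genes was between 50086 and 88896 CPM in sham and between 14435 CPM (replicate 2) and 32144 CPM in ischemia. The light chain genes Myl2 and Myl3 departed from this sum. Myl2 had 366, 2795 and 346 FPKM in sham replicates 1 to 3, against 1315, 594 and 1238 FPKM in ischemia. Myl3 had 796, 9024 and 1021 FPKM in sham, against 5691, 3180 and 5780 FPKM in ischemia. Both were lower in sham replicates 1 and 3 than in any other sample, which held for no other gene of the list. All 8 myeloid genes were higher in each ischemia sample than in each sham sample, 7 of them passed, and of all tested genes 23.6% were higher without overlap and 5.18% passed as higher. The myeloid sum lay between 159.5 and 226 CPM in sham and was 2098, 7584 and 2567 CPM in ischemia replicates 1 to 3, so that replicate 2 had the highest myeloid and the lowest cardiomyocyte sum. The sums of smooth muscle and fibroblast genes were highest in sham replicate 3 (1547 and 3904 CPM) and reached at most 452 and 1225 CPM in ischemia. In sham replicates 1 and 2 the smooth muscle sum was 413 and 451 CPM and the fibroblast sum 1767 and 1407 CPM. By the test 1 of 5 and 0 of 4 of these genes were lower (1.53% of all tested genes), and 1 and 2 were lower without overlap. Endothelial genes summed to between 463 and 824 CPM in all samples, and 0 of 4 passed. Of these 4, Emcn was lower without overlap (log2 fold change -0.52). The skeletal muscle genes Myh4, Actn3 and Tnni2 were under 1 FPKM in every sample, and 0 of the 2 tested skeletal muscle genes passed. Since the tissue is a mixture, fewer cells of a type and less RNA per cell cannot be told apart, and the results below were set against these differences only by leaving out libraries, by a covariate for the atrial genes and by scaling to the cardiomyocyte genes Tnnt2 and Tnni3. The part of the other differences was not tested.

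In sham myocardium Cryab, which encodes alpha-B-crystallin, had the highest level, in FPKM, in which counts are divided by the gene's length and the size of the library. Its mean was 2543 ± 184 FPKM (SD, n = 3), above Hspb6 (1004 ± 450 FPKM), Hspb7 (706 ± 101 FPKM), Hspb1 (293 ± 86.6 FPKM), Hspb8 (220.3 ± 17.7 FPKM), Hspb2 (195 ± 21.5 FPKM), Bag3 (108 ± 31.3 FPKM) and Hspb3 (85.3 ± 37.3 FPKM). The ranges of neighbours in this order overlapped for Hspb6 and Hspb7, for Hspb1 and Hspb8, for Hspb8 and Hspb2, and for Bag3 and Hspb3. All 8 genes were among the more abundant transcripts, since their sham means lay between percentile 94.2 and 99.8 of the tested genes. In ischemia Hspb7 (2397 ± 1319 FPKM) and Hspb1 (2358 ± 892 FPKM) stood next after Cryab (4947 ± 2323 FPKM), and the ranges of these 3 genes overlapped. The ranges of Hspb1 and Hspb6 (1315 ± 512 FPKM), of Hspb8 and Hspb2, and of Hspb2 and Bag3 overlapped as well. Hspb3 (24.9 ± 8.05 FPKM) was last again, at percentile 79.5. The plot of levels shows each sample.

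**Figure D1:**
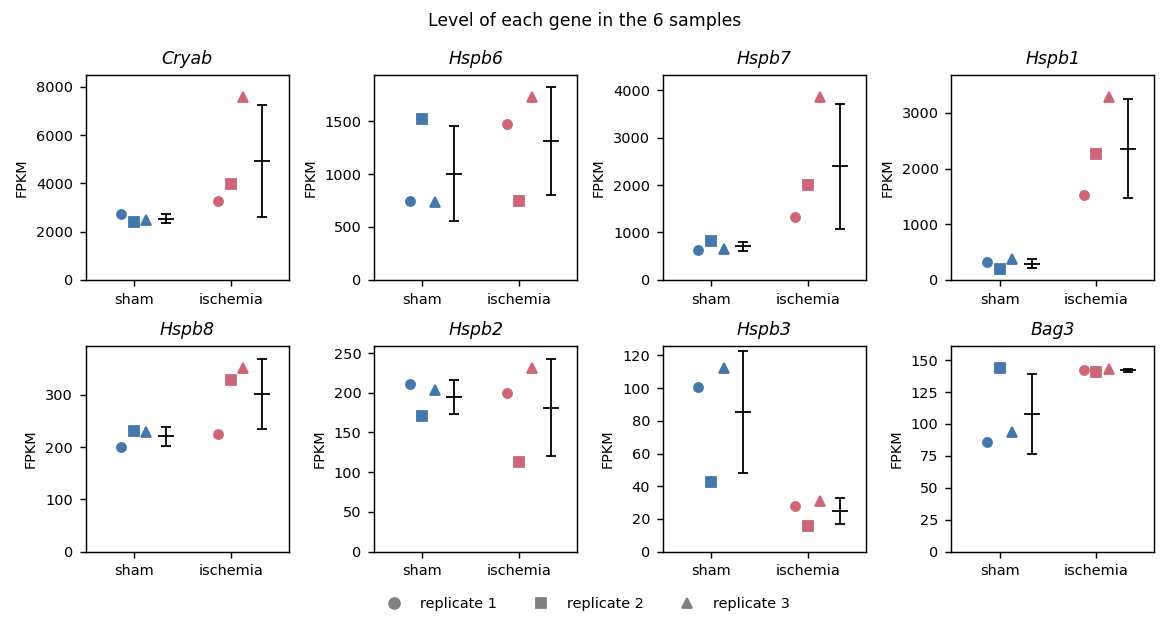
FPKM of each gene (vertical axes, linear, from 0) in 3 sham and 3 ischemia samples, with 1 marker shape per replicate number and the mean ± SD beside the points. The sham and ischemia samples separate for Cryab, Hspb7, Hspb1 and Hspb3, whereas Bag3 in sham replicate 2 (143.6 FPKM) sits with the ischemia samples.

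Ischemia was then compared with sham by the quasi-likelihood test of edgeR on counts, over all 13964 genes with a mean of at least 0.5 FPKM, which included all 8 genes. Hspb1 was higher at an adjusted p under 0.05 and 0 of the 8 were lower. Of all tested genes 5.18% were higher and 1.53% lower by this rule, 6.71% together. DESeq2 called 2 of the 8 higher and 1 lower, where 14.9% of the 13856 genes with an adjusted p in DESeq2 were higher and 12.6% lower, 27.5% together. At a log2 fold change above 2 with an unadjusted p under 0.01, the selection the study describes, Hspb1 again was the gene of the 8 that passed, against 3.31% of all tested genes. At an unadjusted p under 0.05 the count was 3 of the 8 (Hspb1, Hspb3 and Hspb7), where 32.4% of all tested genes reached this. In FPKM, 3 of the 8 genes did not overlap between the groups and were higher in ischemia, and 1 was lower, where 23.6% and 15.0% of all tested genes behaved so. The median log2 fold change of the 8 genes was 0.31, and that of all tested genes was -0.0015.

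Hspb1 encodes Hsp27, a chaperone of actin filaments and stressed proteins that MAPKAP kinases phosphorylate. The table places it on chromosome 12 from 23839399 to 23841049, minus strand. Sham replicates 1 to 3 had 315, 197 and 366 FPKM, whereas 1517, 2264 and 3293 FPKM were measured in ischemia replicates 1 to 3. Every ischemia sample was above every sham sample. The fitted change was 7.80-fold, a log2 fold change of 2.96 ± 0.39 (SE, edgeR adjusted p = 0.0272), and Hspb1 ranked 92 of all tested genes by adjusted p. An exact two-sided permutation test of log2 CPM gave p = 0.1, the smallest that 3 samples against 3 allow. The call was lost without sham replicate 1 (adjusted p = 0.157), sham replicate 2 (0.0820), sham replicate 3 (0.125) or ischemia replicate 3 (0.110), with log2 fold changes between 2.58 and 3.10. In each of these 4 fits 0 of all tested genes passed in edgeR in either direction, and between 3020 and 3809 had an unadjusted p under 0.05. The call was also lost with the replicate number as a block (2.90, edgeR adjusted p = 0.0943) and with the atrial covariate (2.90, adjusted p = 0.132), where again 0 of all tested genes passed (3349 and 2732 at an unadjusted p under 0.05), and 13 of 21 alternatives kept it.

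Hspb7, the cardiovascular member of the family known for binding filamin C, had the second highest log2 fold change. It lies on chromosome 5 from 159967839 to 159971562, plus strand. Sham samples had 639.95, 823 and 655 FPKM, compared with 1318, 2006 and 3867 FPKM under ischemia. The groups did not overlap, and the ischemia samples differed among themselves, with a coefficient of variation of 55.0%. At 1.67 ± 0.50 (SE) its log2 fold change missed the threshold (edgeR adjusted p = 0.0839, exact permutation p = 0.1). It passed without ischemia replicate 1 (1.96, adjusted p = 0.0447) and with DESeq2 (1.64, adjusted p = 0.0055). It was 1.07 without ischemia replicate 3 (adjusted p = 0.204) and 1.13 with the atrial covariate (0.2975).

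Cryab, the most abundant of the family, had 2744, 2384 and 2502 FPKM in the sham samples, against 3280, 3961 and 7600.3 FPKM after ligation. The sham samples lay close together, with a coefficient of variation of 7.22%, and all ischemia samples were above them. Ischemia replicate 3 stood well above the other ischemia samples. Cryab did not pass at a log2 fold change of 0.89 ± 0.42 (SE, edgeR adjusted p = 0.189), and without ischemia replicate 3 it was 0.37 (adjusted p = 0.499).

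Hspb2, known as the binding protein of myotonic dystrophy kinase, is the neighbour of Cryab. The table places Hspb2 on the minus strand of chromosome 8 from 55176847 to 55177818 and Cryab on the plus strand from 55178289 to 55182545, on a build that is not given in the sources used here. Both genes point away from each other with 470 bases between them. Hspb2 stood at 211, 170.2 and 203 FPKM in the sham samples and at 199.6, 113 and 231 FPKM in the ischemia samples. These groups overlapped, with the highest and the lowest value both in ischemia. Its log2 fold change was -0.16 ± 0.31 (SE, edgeR adjusted p = 0.735), and it was 0.11 without ischemia replicate 2.

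Within each sample the neighbours can be compared without any scaling between libraries. Cryab was 13.0, 14.0 and 12.3 times as high as Hspb2 in sham, by FPKM, and 16.4, 35.0 and 32.9 times as high in ischemia. The log2 ratio of Hspb2 to Cryab had a sham mean of -3.71 and an ischemia mean of -4.74, with SDs of 0.093 and 0.61 over 3 samples each. Every ischemia ratio was below every sham ratio. The exact two-sided permutation p was 0.1, and 0.167 after adjustment over the 5 pairs compared.

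**Figure D2:**
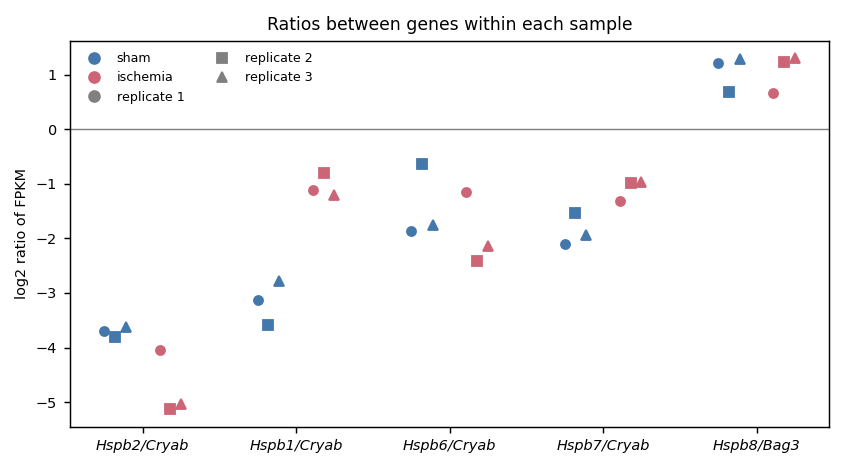
Log2 ratio of FPKM between pairs of genes within each sample (vertical axis), for 5 pairs (horizontal axis), with 1 point per sample coloured by group and shaped by replicate number. The groups separate for Hspb2/Cryab, Hspb1/Cryab and Hspb7/Cryab, and they overlap for Hspb6/Cryab and Hspb8/Bag3.

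The other ratios set members of the family against Cryab in the same way. The log2 ratio of Hspb1 to Cryab was -3.16 ± 0.41 in sham and -1.04 ± 0.21 in ischemia (SD, n = 3 each), a difference of 2.12 with groups that did not overlap. For Hspb7 to Cryab it was -1.86 ± 0.29 in sham and -1.09 ± 0.19 in ischemia, again without overlap. Both had an exact permutation p of 0.1 and an adjusted p of 0.167. The ratio of Hspb6 to Cryab overlapped between the groups (difference -0.48, exact permutation p = 0.5). The ratio of Hspb8 to Bag3, whose products work as a complex, had means of 1.07 ± 0.33 in sham and 1.06 ± 0.35 in ischemia on the log2 scale (exact permutation p = 1).

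Hspb3, a small member found in muscle that forms a complex with Hspb2, had the lowest log2 fold change. It lies on chromosome 2 from 45517789 to 45518502, minus strand. The sham rats had 101, 42.7 and 112 FPKM, and 28.0, 15.8 and 31.0 FPKM were found in the ischemia rats. All ischemia samples were below all sham samples, but sham replicate 2 was well below the other sham samples and closest to ischemia. With a log2 fold change of -1.79 ± 0.41 (SE), Hspb3 narrowly missed the threshold (edgeR adjusted p = 0.0510, exact permutation p = 0.1). It passed when only genes with a mean of at least 5 FPKM were tested (adjusted p = 0.0411) and with DESeq2 (4.58e-04). Against sham replicate 2 alone it was -1.06 (adjusted p = 0.402). Sham replicates 1 and 3, where Hspb3 was high, were also the samples with the high atrial genes given above. With the atrial covariate the log2 fold change of Hspb3 was -1.34 (adjusted p = 0.194).

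Hspb6 encodes Hsp20, which protein kinase A and protein kinase G phosphorylate and which is known for effects on cardiac and vascular muscle. It lies on chromosome 1 from 89008117 to 89010256, plus strand. It was measured at 749.7, 1523 and 738 FPKM in sham, compared with 1469, 743 and 1732.5 FPKM in ischemia. The values fell into a low and a high level that crossed the groups, with sham replicates 1 and 3 and ischemia replicate 2 low. The log2 fold change was 0.26 ± 0.53 (SE, edgeR adjusted p = 0.748). It was 0.86 without sham replicate 2 and -0.49 against sham replicate 2 alone, and 0.054 with the atrial covariate (adjusted p = 0.960), and none of these passed. Among the low samples, sham replicates 1 and 3 had the highest atrial sums and ischemia replicate 2 the lowest sum of cardiomyocyte genes. But the cardiomyocyte sums of sham replicates 1 and 3 (55110 and 50086 CPM) were above those of ischemia replicates 1 and 3 (32144 and 30449 CPM), where Hspb6 was high. These markers were picked after the values were seen, and the part of the tissue mixture in this split was not tested.

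Hspb8 encodes Hsp22, the partner that Bag3 brings to misfolded proteins. It lies on chromosome 12 from 45905371 to 45920013, plus strand. The 3 sham values were 199.97, 231 and 229.7 FPKM, and the 3 ischemia values were 225, 329 and 351 FPKM. Ischemia replicate 1 lay within the sham range, and the other ischemia samples were above it. The log2 fold change was 0.35 ± 0.26 (SE, edgeR adjusted p = 0.375), and it was 0.070 with the atrial covariate (adjusted p = 0.885).

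Bag3, on chromosome 1 from 199941161 to 199965191, plus strand, had 85.8, 143.6 and 93.9 FPKM in sham replicates 1 to 3. The ischemia values were 142.5, 141 and 143 FPKM. In FPKM the coefficient of variation was 0.705% in ischemia and 29.0% in sham, while in the scaled CPM it was 7.16% and 43.3%, and sham replicate 2 was the highest sample on both scales. The log2 fold change was 0.27 ± 0.32 (SE, edgeR adjusted p = 0.582). Without sham replicate 2 it was 0.68 (adjusted p = 0.117), and against sham replicate 2 alone it was -0.32 (adjusted p = 0.595). Sham replicate 2 was the sham sample with the low atrial sum, and with the atrial covariate the log2 fold change of Bag3 was 0.043 (adjusted p = 0.937).

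**Figure D3:**
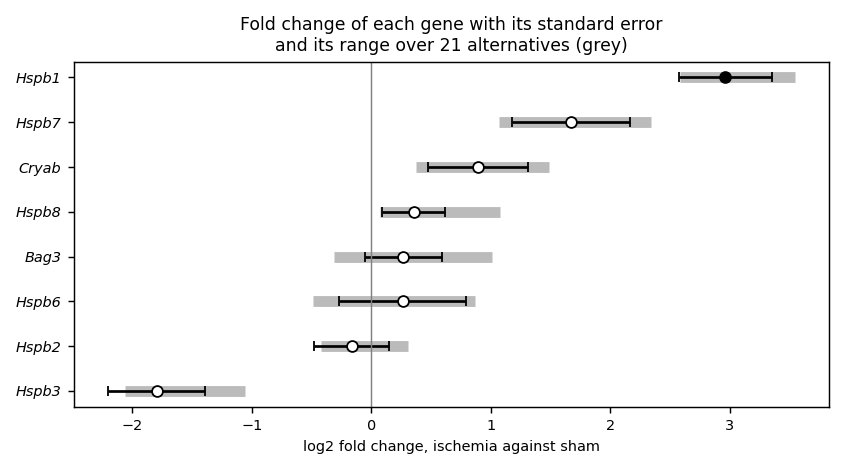
Log2 fold change of each gene in ischemia against sham (horizontal axis) with its standard error, filled where the edgeR adjusted p was under 0.05, and the range over 21 alternative analyses in grey. Only Hspb1 is filled, and the ranges of Hspb2, Hspb6 and Bag3 cross 0. The high ends of most ranges come from scaling to 2 cardiomyocyte genes, which moved the median of all genes by 0.67.

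Because Hspb1, Hspb7 and Cryab were abundant, the summed level of the 7 small heat shock protein genes was also compared. The sum was 4960 FPKM in sham replicate 1, 5371 in sham replicate 2 and 4806 in sham replicate 3. In ischemia it was 8037, 9432 and 17105 FPKM. The means were 5046 ± 292 FPKM in sham and 11525 ± 4883 FPKM in ischemia (SD, n = 3 each), 2.28-fold apart, with no overlap and an exact permutation p of 0.1. The share of Hspb1 in the sum was 6.34%, 3.67% and 7.62% in the sham samples, against 18.9%, 24.0% and 19.3% in ischemia. The share of Hspb7 was between 12.9% and 15.3% in sham and between 16.4% and 22.6% in ischemia. The share of Cryab lay between 44.4% and 55.3% in sham and between 40.8% and 44.4% in ischemia. Shares add up to a whole, so a higher share of 1 gene lowers those of the others.

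**Figure D4:**
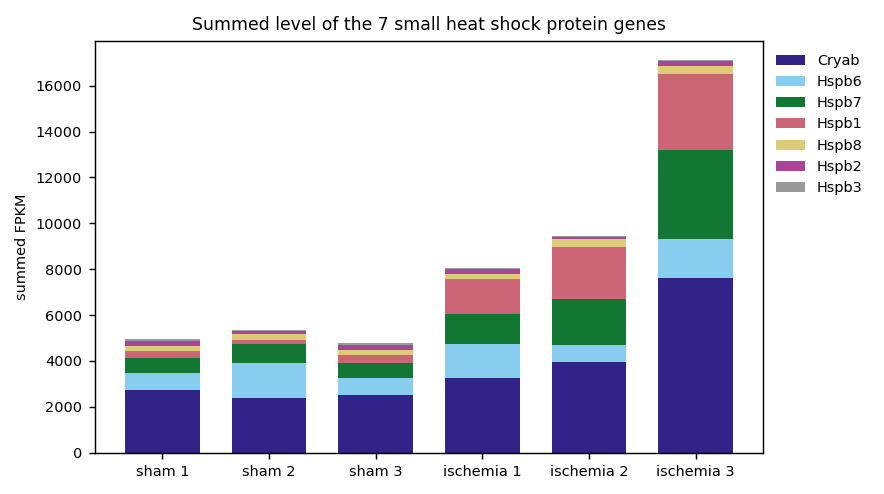
FPKM of the 7 small heat shock protein genes stacked for each sample (vertical axis, linear, from 0; horizontal axis, the 6 samples). The sham bars reach 4806 to 5371 FPKM and the ischemia bars 8037 to 17105 FPKM, with a larger block for Hspb1.

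The related genes were then counted by role, and the shares of all tested genes given above, 6.71% for edgeR, 27.5% for DESeq2, 32.4% at an unadjusted p under 0.05, and 23.6% higher and 15.0% lower without overlap, are the background of these counts. Of the other small heat shock protein genes, Hspb11 was tested and had a log2 fold change of -0.18 (edgeR adjusted p = 0.627). Cryaa, the lens partner of Cryab, had 4 counts in sham replicate 1 and 0 in the other samples, Odf1 had 0 in every sample and Hspb9 had between 2 and 22 counts. Of 5 other Bag genes 0 passed in edgeR or DESeq2, and 1 had an unadjusted p under 0.05. Bag1 was above sham in all ischemia samples, with 44.8, 58.7 and 50.5 FPKM in sham, against 78.4, 101.6 and 85.3 FPKM in ischemia (log2 fold change 0.67 ± 0.23, adjusted p = 0.111).

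Of the 8 genes of the Bag3 complex and of chaperone-assisted selective autophagy, 0 passed in edgeR in either direction, and 2 were higher without overlap between the groups (23.6% of all tested genes). The same 2, Flnc and Hspa8, had an unadjusted p under 0.05 and passed in DESeq2. Flnc encodes filamin C, the Z-disc crosslinker that this pathway turns over. It had 53.7, 47.4 and 62.0 FPKM in sham, compared with 66.5, 405 and 785 FPKM in ischemia, so that ischemia replicate 1 stood just above sham. Its log2 fold change of 2.89 ± 0.84 (SE) had an edgeR adjusted p of 0.0803. Hspa8, the constitutive Hsp70 that Bag3 binds, had a log2 fold change of 0.85 ± 0.28 (adjusted p = 0.0994). Sqstm1 (0.31), Stub1 (-0.22), Map1lc3a (-0.34) and Map1lc3b (-0.27), which encode the autophagy receptor p62, the ligase CHIP and LC3 proteins, overlapped between the groups.

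The transcript of Hsf1, the main heat shock factor, had 14.5, 15.6 and 14.5 FPKM in sham, against 16.1, 16.04 and 16.6 FPKM in ischemia. These FPKM did not overlap, while the scaled counts gave a log2 fold change of 0.029 ± 0.187 (SE, edgeR adjusted p = 0.927). Hsf4, a factor best known from the lens, was below sham in every ischemia sample (log2 fold change -0.99 ± 0.51, adjusted p = 0.222). Of the 3 factors, Hsf2 included, 0 passed in edgeR or DESeq2 and 0 had an unadjusted p under 0.05. The transcript level does not measure the activity of the factor. Among 16 tested other targets of the heat shock factors 0 were higher and 1 was lower by the adjusted p of edgeR, DESeq2 called 2 higher (Hsp90aa1 and Serpinh1) and 2 lower (Fkbp4 and Hspa4l), 6 had an unadjusted p under 0.05, 14 had positive log2 fold changes and the median was 0.59. The gene that was lower was Fkbp4, which encodes an Hsp90 co-chaperone. It had 115, 115 and 97.6 FPKM in sham, compared with 52.2, 50.6 and 44.4 FPKM in ischemia, and it fell by 1.26 on the log2 scale (SE 0.21, adjusted p = 0.0357). The call for Fkbp4 was lost with the replicate block (-1.24, adjusted p = 0.108), with the atrial covariate (-1.34, 0.13) and in 5 of the 6 fits that left out 1 sample (-1.39 to -1.11). In these edgeR fits, except that without ischemia replicate 2, 0 of all tested genes passed, and between 2732 and 3809 had an unadjusted p under 0.05. With scaling to Tnnt2 and Tnni3, which moved the median of all genes to 0.67, Fkbp4 was at -0.57 (adjusted p = 0.431). The genes whose groups did not overlap with the largest log2 fold changes were Hsp90aa1 (2.19 ± 0.70, adjusted p = 0.0966), Serpinh1 (0.73 ± 0.20, 0.0748) and Stip1 (0.55 ± 0.20, 0.126), and next to them Hsp90ab1 (0.48 ± 0.23, 0.205). Hsp90aa1, the inducible Hsp90, had 37.0, 9.35 and 30.8 FPKM in sham, against 41.4, 235 and 91.6 FPKM in ischemia. By contrast with Hspb1, which was highest in ischemia replicate 3, this gene was highest in ischemia replicate 2. So was Hspa1b, an inducible Hsp70, which had 14.5, 5.69 and 9.20 FPKM in sham, while ischemia replicates 1 to 3 had 10.9, 413 and 17.5 FPKM. Its groups overlapped, and its log2 fold change was 3.76 ± 1.41 (SE, adjusted p = 0.129). Ischemia replicate 2 was also the sample with the highest myeloid sum (7584 CPM) and the lowest cardiomyocyte sum (14435 CPM), whose part in these values was not tested. Of 15 of these targets with a promoter window, 11 (73.3%) held a heat shock motif, against 15.85% of all windows. The list was made of known targets, so a high share was built into it.

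Of 10 tested filament and Z-disc genes 0 passed in edgeR (4 at an unadjusted p under 0.05, which 32.4% of all tested genes reached, and 4 with DESeq2). In FPKM 3 were above and 3 below sham in every ischemia sample, against 23.6% and 15.0% of all tested genes. Des encodes desmin, the intermediate filament that Cryab binds. It had 789.9, 1208 and 778 FPKM in sham, compared with 1455, 2297 and 4704 FPKM in ischemia, with the highest value in ischemia replicate 3 as for Cryab and Hspb7. Its log2 fold change was 1.501 ± 0.557 (SE, edgeR adjusted p = 0.127). The capping protein gene Capza1 had 1.30 ± 0.39 (adjusted p = 0.0855), while Ldb3 (-1.26 ± 0.49, 0.135) and Mybpc3 (-1.11 ± 0.50, 0.175) of the sarcomere were negative. Of 8 tested kinase genes 0 passed in edgeR, 5 had an unadjusted p under 0.05 (32.4% of all tested genes), and 3 passed in DESeq2 (27.5%). Mapkapk3, whose product phosphorylates Hsp27, had 13.0, 13.4 and 11.2 FPKM in sham, against 20.2, 23.4 and 23.9 FPKM in ischemia (log2 fold change 0.74 ± 0.20, adjusted p = 0.0728). Mapkapk2, a kinase of Hsp27 as well, was below sham in every ischemia sample, with 145, 211 and 149 FPKM in sham, compared with 140.3, 125 and 125 FPKM in ischemia (log2 fold change -0.49 ± 0.29, adjusted p = 0.275). Mapk14, which encodes the p38 kinase above both, had 0.65 ± 0.26 (adjusted p = 0.146), Dmpk, the partner of Hspb2, had -1.34 ± 0.43 (adjusted p = 0.0966) and Prkaca, a catalytic subunit of protein kinase A, had -1.17 ± 0.46 (adjusted p = 0.140).

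**Figure D5:**
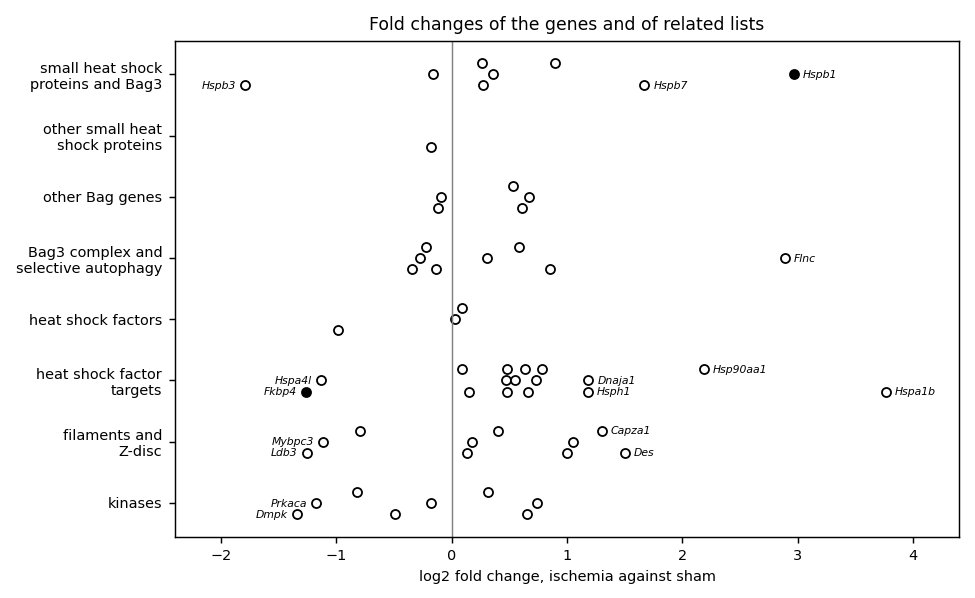
Log2 fold change in ischemia against sham (horizontal axis) of each tested gene of the 8 examined and of 7 related lists (vertical axis, spread within a list for legibility), filled where the edgeR adjusted p was under 0.05. Hspb1 and Fkbp4 are the filled points.

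The genes whose pattern lay nearest were searched by the root mean square difference of log2 CPM over the 6 samples, after each gene was centred on its own mean. Nearest to Hspb1 were Rrp12 (0.247), Syt12 (0.253), SNORD33 (0.280), a gene with a placeholder name (0.296) and Cd3eap (0.318). Rrp12 acts in ribosome assembly and had 2.70, 2.80 and 3.62 FPKM in sham, compared with 19.2, 29.0 and 34.9 FPKM in ischemia. Of the family the nearest to Hspb1 was Hspb7, at rank 413 (0.790). Nearest to Cryab were Snord65 (0.120), Myl12a (0.156), Atxn10 (0.175) and Lgalsl (0.179), and of the family Hspb8 at rank 198 (0.354). Nearest to Bag3 were Znhit6 (0.0950), a gene with a placeholder name (0.0952), Cdc34 (0.0983), Trex1 (0.111) and Parvb (0.114), and Hspb8 stood at rank 507 (0.277). No small heat shock protein gene was among the 5 genes nearest to Hspb1, Cryab or Bag3. Lists of 5 are too short to show whether the family lay near or far. Ranks of the others of the 8 genes ran from 413 (Hspb7) to 12872 (Hspb3) for Hspb1. For Cryab they ran from 198 (Hspb8) to 12391 (Hspb3), and for Bag3 from 507 (Hspb8) to 12645 (Hspb1). Whether the family lay nearer than other genes was not tested.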

How the data were processed

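Myocardial total RNA of 3 sham and 3 ischemia rats was sequenced. Groups and replicate numbers came from the sample titles. The authors deposited raw read counts (whole numbers) and FPKM per Ensembl gene; the submitters' processing notes name STAR and HTSeq, and build, versions and strand setting are not given in the sources used here. In the FPKM deposited by the authors, genes without reads stand at 0.0001, and the ratio of count to FPKM of each of the 8 genes followed 1 factor per sample to within 0.0576%.

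Genes with a mean of at least 0.5 FPKM were tested with edgeR 4.0.16 (quasi-likelihood, TMM scaling factors 0.834 to 1.11, two-sided, Benjamini-Hochberg over all 13964 tested genes, threshold 0.05) in R 4.3.3. SE was derived from the F statistic. Nothing states whether animals were littermates or batched, and p-values measure the spread between these samples. Single values used exact permutation tests (scipy 1.17.1). Alternatives used DESeq2 1.42.0, limma 3.58.1 on log2(FPKM + 0.1), + 0.01 and + 1, other scalings and filters, a replicate block, an atrial covariate and omitted samples. At these depths 3 counts equal 0.0377 to 0.0438 CPM, counting error only. The fit was checked on simulated counts.

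The 8 genes, the lists and the tests were chosen with earlier results of these data known. The genes to be named were the 8, Hsf1, Hspa8 and Flnc, list genes past the threshold or, failing that, up to 4 per list that did not overlap, with the largest changes, and the 5 nearest genes by pattern to Hspb1, Cryab and Bag3. Of these, 1 gene is not reported here. Other named genes were chosen after their values were seen. Same-numbered samples belong to different animals. List genes without a row, protein sequences, reads and chromatin data were not analysed here. The scaling to Tnnt2 and Tnni3 was chosen after seeing the data.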

Additional observations from a re-analysis of the deposited data

How the results depend on the processing

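Over 21 alternatives the log2 fold change was positive in all for Hspb1 (2.58 to 3.54), Hspb7 (1.07 to 2.34), Cryab (0.37 to 1.48) and Hspb8 (0.070 to 1.08), and negative in all for Hspb3 (-2.06 to -1.06). Adjusted p-values of Hspb1 ran from 9.15e-13 with DESeq2 to 0.394, and 13 alternatives passed. With DESeq2 2 of the 8 genes were higher and 1 lower (Hspb7 at 1.64, Hspb3 at -1.81), and 8 list genes were higher and 5 lower, where 14.9% of all genes were higher and 12.6% lower. With a mean of at least 5 FPKM 1 gene was lower (Hspb3 at -1.85), as were 291 of the 8156 genes tested there. With limma at each pseudocount 1 list gene was higher (Mapkapk3), as were 657 to 850 of all tested genes. With the replicate block, the atrial covariate, or without sham replicates 1 and 3, 0 of the 8 genes were higher and 0 list genes were lower, and Hspb1 was at 2.90, 2.90 and 3.29 without passing. The mean correlation of deviations from the group means was -0.115 for same-numbered samples and 0.0553 for the others. Deviations of 3 samples sum to 0 within a group, so these values cannot show whether the numbers stand for a shared batch. In these 3 edgeR fits 0 of all tested genes passed in either direction, and 3349 (block), 2732 (covariate) and 1707 (without sham replicates 1 and 3) had an unadjusted p under 0.05. Without sham replicates 1 and 3, where 1 sham sample is assumed to vary like the others, Hspb6 reversed to -0.49 and Bag3 to -0.32.

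Leaving out 1 sample gave 0 to 2 genes higher, 0 to 4 list genes higher and 0 to 3 lower. These counts stand beside 0 to 1490 of all tested genes higher and 0 to 1115 lower. It gave Hspb1 2.58 to 3.19, Hspb7 1.07 to 1.96, Hspb2 -0.42 to 0.11 and Hspb6 -0.033 to 0.86. Scaling to Tnnt2 and Tnni3, added after seeing the data, moved the median of all genes to 0.67. On that scale 6 of all tested genes were higher and 1 lower by adjusted p, 0 of the 8 genes were higher, 2 passed the selection by size (above 2) with an unadjusted p under 0.01, 0 list genes were lower, Hspb1 was at 3.54 without passing, and Hspb2 was at 0.30, above 0 but still below the median of all genes. The causes were not tested. Depth was no limit for the 8 genes, whose counts were all at least 846.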
